A study of Mus musculus with 24 samples.

Results

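Cheek wounds were compared with abdomen wounds 3 days after injury, using 8 of the 24 RNA-seq libraries of the series, 4 from cheek wounds and 4 from abdomen wounds. The libraries were chosen by their labels alone, with no measured value, and all genes of the deposited table were considered. The animals were outbred CD1 mice of 7 weeks, with hair follicles described as coordinated in telogen. They carried no transgene and received no agent beyond anaesthetic and analgesic. Each mouse was wounded at a single site with a 2 mm full-thickness excisional punch, and the wound was collected 3 days later with a 2 mm punch biopsy. Cheek mice had 1 wound and abdomen mice had 2, so wound number and body site cannot be told apart. The cheek site was facial skin over the cheekbone. Cheek and abdomen wounds came from different mice, and each mouse also gave a library of adjacent unwounded skin. RNA was total RNA from whole tissue, so fewer cells of a type and less RNA per cell cannot be told apart. The question was how the tissue of a healing wound differs between a facial and a trunk site.

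By day 3 a small skin wound holds a fibrin clot, neutrophils and macrophages, migrating and dividing keratinocytes at its edge, and the first fibroblasts and vessels of granulation tissue. The dermis of the cheek arises largely from the neural crest, which is free of Hox expression at its most anterior levels, and that of the ventral trunk arises from mesoderm. Fibroblasts of adult skin keep much of the Hox expression of their position along the body axis. Cheek and trunk skin also differ in what lies beneath them: facial skin overlies muscles of facial expression, and loose-skinned trunk skin carries the panniculus carnosus muscle. A difference between the 2 wounds can thus be one of position, of tissue sampled or of the response to injury, and unwounded skin of both sites was set beside each result.

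The libraries were separated by site. In a principal component analysis of the 8 libraries the first component held 37.0% of the variance, with abdomen wounds between -35.4 and -12.9 and cheek wounds between 17.1 and 28.2. Summed FPKM, the unit of all levels here, which divides a gene's fragments by transcript length and by library size, ran from 532586 to 547623 in cheek wounds and from 552747 to 608888 in abdomen wounds. Genes above 0 numbered 16404 to 16577 and 16226 to 16246. FPKM hold no read counts, so the sequencing depth behind a value is unknown. Genes of epidermis, the labelled tissue's defining layer, summed to between 15429 and 25900 FPKM over the 8 libraries. 2 features of the libraries moved with site. Abdomen wounds 2, 3 and 4 held pancreas transcripts: Ins2, which encodes insulin, was at 310.0, 95.3 and 100.2 FPKM there and was listed at 0 in abdomen wound 1 and in all cheek wounds. Of 14 pancreas genes, 13 were higher in these 3 libraries than in each of the 9 other wound libraries. 2 of the 14 passed the filter on low values, and Ctrb1, a digestive protease, was called lower in cheek wounds (log2 difference -2.53). Ctrb1 reached at most 0.49 FPKM in cheek wounds and 0.74 in back wounds, and it passed only with back wounds counted. Insulin was also present in unwounded back 1 and 3 (114 and 117 FPKM) and was listed at 0 in the other unwounded libraries. Differences also rose with transcript length, from a median log2 difference of -0.08 in the shortest of 4 equal groups of genes (204 to 2127 bases) through 0.02 and 0.10 to 0.21 in the longest (4701 to 123179 bases), in 13862 genes with a length. In unwounded skin the same medians were -0.03, 0.00, 0.03 and 0.07. By library, the median level of the longest group against the shortest was 0.13, 0.14, 0.13 and 0.15 in cheek wounds 1 to 4 and -0.07, 0.02, -0.42 and -0.10 in abdomen wounds 1 to 4 (log2, relative to the 8 libraries), with abdomen wound 3 apart from the others. The part of either feature in a given gene's difference was not tested beyond 2 further fits, one with abdomen wound 1 as the only abdomen wound and one with the length trend of each library removed. In the first, the lone abdomen library was assumed to vary like the other groups.

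Of 14023 genes tested, 1519 (10.8%) differed between cheek and abdomen wounds at an adjusted p under 0.05 (limma on log2(FPKM + 0.5), Benjamini-Hochberg adjustment over all genes). Such genes are referred to as called. More were higher in cheek wounds, 1054 (7.52%), than lower, 465 (3.32%). This split rested on scaling: it was 700 higher and 691 lower after median-ratio scaling, 736 and 692 after quantile normalisation, 1762 and 373 with equal sums (TPM), and 598 and 614 with the length trend removed. The total was 183 with abdomen wound 1 alone, 490 without back wounds in the fit and 769 with all 24 libraries in it. It was 757, 579, 652 and 736 without cheek wounds 1 to 4 in turn and 1703, 1553, 508 and 1378 without abdomen wounds 1 to 4. Most differences were small. The median absolute log2 difference of called genes was 0.52, and 180 were called with a difference above 2-fold, 110 of them higher in cheek and 70 lower. In 1347 called genes the 4 cheek libraries did not overlap the 4 abdomen libraries. Over all tested genes, the 4 cheek libraries stood entirely above the 4 abdomen libraries in 13.6% and entirely below in 5.4%. For a single gene without overlap the exact two-sided permutation test gives 0.0286, the smallest p that 4 against 4 allows. The labels give 4 separate mice per group. The median log2 difference over all genes was 0.07, against which list medians can be read. Counts of called list members can likewise be read against the shares of all genes: 10.8% called, 7.52% higher and 3.32% lower.

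**Figure D1:**
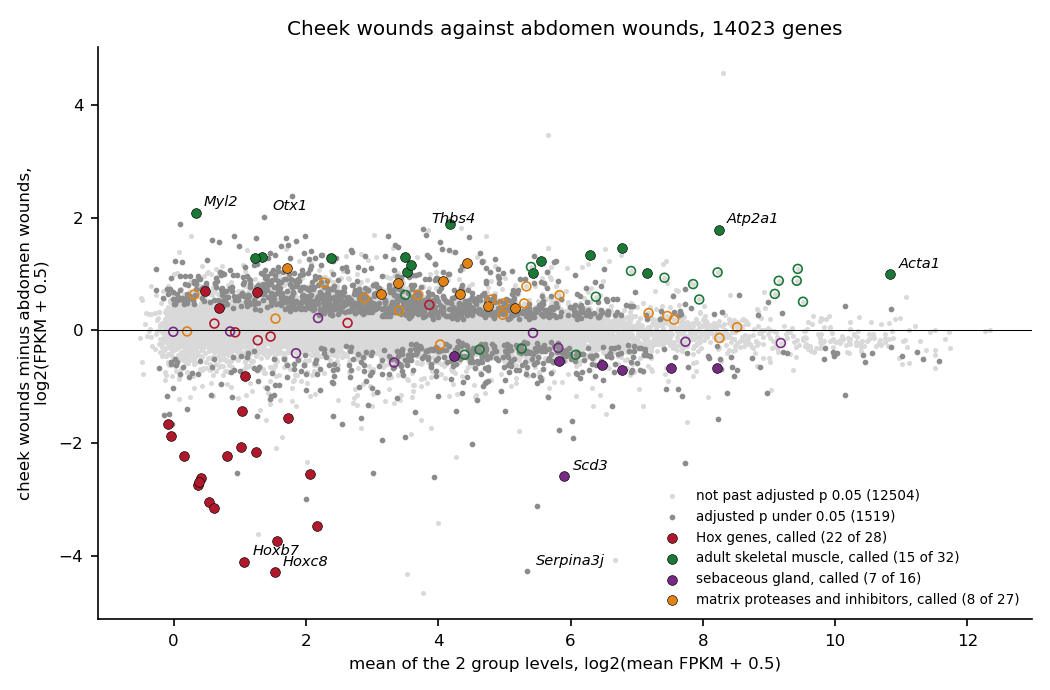
Difference between cheek and abdomen wounds (log2(FPKM + 0.5), vertical axis) against the mean level of the 2 groups (log2 scale, horizontal axis) for 14023 genes. Dark grey points are the 1519 called genes and coloured points are members of named lists, filled where called. Hox genes reach below -4 at low to moderate level, and muscle genes stand at high level above 0.

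Of the 8 called genes with the largest falls 6 were Hox genes, the transcription factors that lay down position along the head-to-tail axis. 28 of 34 listed Hox genes passed the filter on low values, and 19 were lower in cheek wounds and 3 higher. Their median log2 difference was -1.97, or -1.55 without the 5 that were listed at 0 in every cheek wound (Hoxa10, Hoxb5, Hoxb7, Hoxb8 and Hoxc10). Hoxc8, on chr15:102990539-102994275 of GRCm38.p6, was at 9.24, 11.8, 14.2 and 13.6 FPKM in the abdomen wounds and at 0.02, 0.17, 0.10 and 0.32 in the cheek wounds. Hoxb7, on chr11:96285604-96290163, was at 5.77, 9.72, 10.1 and 7.52 in abdomen wounds and was listed at 0 in all 4 cheek wounds. The groups stood far apart in both genes, with abdomen wound 1 the lowest of its group. The log2 difference of Hoxc8 was -4.29 (SE 0.15, limma adjusted p = 2.64e-08).

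Further Hox genes of the trunk followed. Hoxa7 was at 5.76, 10.6, 13.6 and 12.3 FPKM in abdomen wounds and at 0.17, 0.45, 0.33 and 0.24 in cheek wounds, a log2 difference of -3.74 (SE 0.21). Hoxc6 was at 10.1, 12.98, 15.9 and 16.5 against 0.40, 0.97, 0.30 and 1.97, a difference of -3.47 (SE 0.30). Neither gene overlapped between the groups. Hoxc9 fell by 3.15, Hoxa9 by 3.04, Hoxb6 by 2.61 and Hoxa5 by 2.15 on the log2 scale. Hoxb2, an anterior member with a role in the hindbrain, also fell, from 8.31, 8.77, 10.6 and 9.40 to 0.84, 1.19, 0.66 and 2.43 FPKM.

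Counts differed by paralogue group and by cluster, and these differences were not tested. Among the 18 tested genes of paralogue groups 5 to 13, 14 were lower and none was higher, with a median log2 difference of -2.42. Among the 10 of groups 1 to 4, 5 were lower and 3 higher, with a median of -0.42. All 8 tested genes of cluster B were lower, as were 6 of 7 in cluster C and 5 of 8 in cluster A. In cluster D none of the 5 tested genes was lower and 2 were higher, with a median of 0.40. Hoxa7, Hoxa9, Hoxa10, Hoxb5 to Hoxb9, Hoxc8, Hoxc9 and Hoxc10 were below 0.5 FPKM in every cheek wound. They passed the filter through the other wounds, and such genes can hardly come out higher in cheek. The Hox counts and medians here and above thus depend in part on the filter. Hoxd3 was at 0.27, 0.88, 0.73 and 0.50 FPKM in abdomen wounds and at 1.43, 0.94, 1.41 and 1.2 in cheek wounds (log2 difference 0.70, limma adjusted p = 0.0307). Hoxd4 rose by 0.40 (limma adjusted p = 0.0346). Hoxd8, the highest of the cluster, had 8.92, 11.9, 13.9 and 13.3 against 18.9, 14.8, 15.7 and 16.5 FPKM, and its limma adjusted p was 0.0534. The third higher Hox gene was Hoxa2, which patterns the second pharyngeal arch and stood at 0.99, 0.90, 1.69 and 2.04 FPKM in abdomen wounds and 2.53, 2.84, 1.90 and 2.72 in cheek wounds (log2 difference 0.69, limma adjusted p = 0.0390), with an overlap of the groups. The calls of the 3 rises were often lost. Hoxd3 lost its call in 5 of 8 fits that left out a mouse, and Hoxa2 and Hoxd4 in 6. Hoxc13, which acts in hair and nail differentiation, had a difference of -0.11 and was not called. In unwounded cheek it was at 3.22, 2.63, 8.27 and 40.7 FPKM, and in unwounded abdomen at 3.76, 3.37, 5.12 and 3.76. In unwounded skin 17 Hox genes were lower in cheek and 2 higher.

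**Figure D2:**
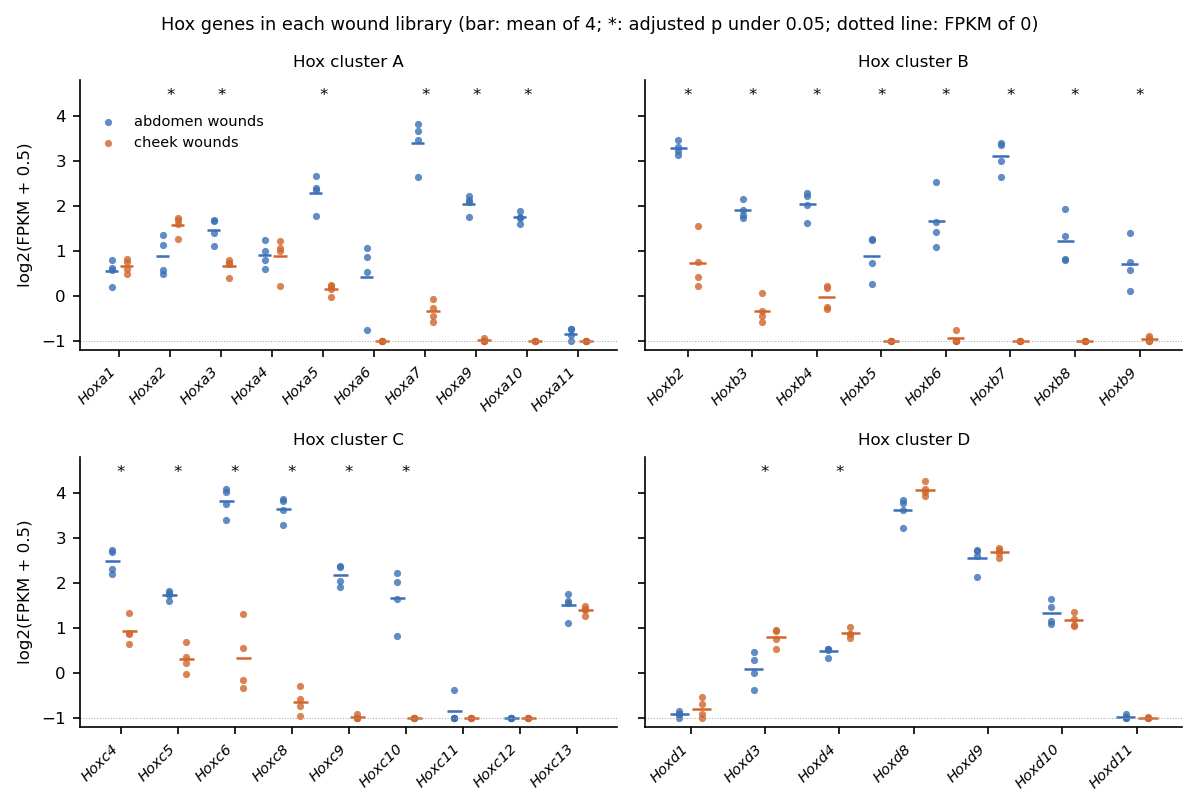
Hox genes in each wound library (log2(FPKM + 0.5), vertical axis), one panel per cluster, with points for the 4 abdomen and 4 cheek wound libraries, a bar at the mean of 4, an asterisk where called and a dotted line at an FPKM of 0. Cheek wounds lie at or near the dotted line for most genes of clusters A to C from paralogue 5 on, and the 2 groups lie close together in cluster D.

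Other regulators of position gave fewer calls. Of 15 tested transcription factors of trunk and limb patterning 4 were lower and 2 higher (40.0% called against 10.8% of all genes). Their median log2 difference was -0.04, or 0.03 with abdomen wound 1 alone. The count of called members was 4 to 6 when a mouse was left out. Tbx5, which specifies the forelimb field, was at 0.74, 1.44, 1.32 and 1.55 FPKM in abdomen wounds and at 0.07, 0, 0.03 and 0.11 in cheek wounds (log2 difference -1.65, SE 0.19, limma adjusted p = 7.90e-04). Hand2, a helix-loop-helix factor of limb buds and pharyngeal arches, was at 0.93, 1.55, 1.48 and 1.39 in abdomen wounds and at 0.13, 0.10, 0.05 and 0.60 in cheek wounds (-1.40, limma adjusted p = 0.00434). Both were low-level transcripts without overlap. Tbx3 fell by 0.89 and En1, which marks a dermal fibroblast lineage of the dorsal trunk, by 0.53. En1 lost its call in 3 of 8 fits that left out a mouse. In the fit with abdomen wound 1 alone Tbx5 and Hand2 were not tested, and Tbx3 and En1 had differences of -0.91 and -0.52. Tbx15, which acts in craniofacial development and in the border of the trunk's dorsal coat colour, stood at 9.52, 10.97, 9.16 and 14.1 FPKM in abdomen wounds and at 24.0, 20.2, 20.2 and 20.4 in cheek wounds (log2 difference 0.94, SE 0.13). Tbx18 rose by 0.58. Of 19 tested craniofacial factors 2 were higher and none was lower (10.5% called against 10.8% of all genes), and the median was -0.05. Otx1, a homeobox gene of the anterior head, was at 1.66, 0.59, 0.54 and 0.47 in abdomen wounds and at 4.74, 4.45, 4.79 and 4.17 in cheek wounds. Its cheek mean was 5.57 times the abdomen mean (log2 difference 2.02, SE 0.22, limma adjusted p = 5.78e-04). Six4, a homeobox factor of muscle and head development, rose by 0.53 and lost its call with the length trend removed. The remaining 17 factors, many of them regulators of jaw and face formation in the embryo, were not called. The unwounded difference was 2.23 for Otx1, -1.36 for Tbx5 and 1.09 for Tbx15, all called there too, and 0.03 for Hand2 (limma adjusted p = 0.946).

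Many genes of contractile skeletal muscle were higher in cheek wounds. Of 32 tested members of the adult muscle list 15 were higher and none was lower, with a median log2 difference of 1.02. Atp2a1, the calcium pump of fast fibres, was at 72.7, 122, 202 and 286 FPKM in abdomen wounds and at 621, 426, 419 and 661 in cheek wounds (log2 difference 1.79, SE 0.36, limma adjusted p = 0.0161). Myh2, the fast IIa myosin heavy chain, was at 7.54, 4.11, 8.37 and 17.7 against 40.3, 36.9, 28.4 and 24.6 (1.88, SE 0.46). Myl2, a myosin light chain of slow and cardiac muscle, was nearly absent from abdomen wounds, with 0.10, 0, 0.29 and 0 FPKM, and reached 1.93, 1.17, 1.69 and 3.84 in cheek wounds. The giant sarcomere protein Ttn rose by 1.29, the muscle cofactor Vgll2 by 1.29 and the ubiquitin ligase component Asb10 by 1.31. Tnnt1, Tnni1 and Tnnc1 of the slow troponin complex had differences of -0.32, -0.34 and -0.43 and were not called. Acta1, skeletal actin, was called (log2 difference 1.00, limma adjusted p = 0.0420) although the groups overlapped, and Ckm, muscle creatine kinase, was not, at 175, 299.5, 563 and 738 against 854, 544, 606 and 889.8 FPKM. The muscle genes were called in a varying number of fits. The count was 7, 6, 6 and 6 without cheek wounds 1 to 4 in turn and 11, 9, 6 and 22 without abdomen wounds 1 to 4. It was 1 when all 24 libraries shared one spread, 18 with abdomen wound 1 alone (median 1.81) and 14 with the length trend removed.

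The amount of muscle RNA varied between abdomen wounds. The summed FPKM of the list was 2821, 3949, 6677 and 8482 in abdomen wounds 1 to 4 and 11074, 9328, 7410 and 10139 in cheek wounds, so cheek wound 3 lay below abdomen wound 4. In unwounded skin the sums ran from 896 to 24463 in abdomen and from 18970 to 38303 in cheek, with a median log2 difference of 2.05 over 30 tested members, of which 2 were called. The median log2 change of these genes on wounding was -1.39 in cheek and -0.42 in abdomen. Regulators of new muscle formation were not called: 0 of 16 genes of the myogenic and regenerating list passed the limma test and 1 had an unadjusted p under 0.05, with a median log2 difference of 0.10, and their sums overlapped (187 to 309 in abdomen and 88.9 to 662 in cheek wounds). Several genes outside the list whose products belong to muscle were also higher. They were Ckmt2, the mitochondrial creatine kinase of sarcomeres (1.66), Cmya5, a protein of the sarcomere's edge (1.67), Scn4b, a sodium channel subunit (1.68), and Slc2a4, the insulin-responsive glucose transporter (1.26).

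Start-site sequence was available for 28 of the muscle genes, in 34 windows of 250 bases before to 50 after a RefSeq start. 3 highly expressed members are printed, taken from those that were called higher and had a single window. They are given from 5′ to 3′ on the gene's strand, and capitals mark matches on either strand to the E-box CANNTG bound by myogenic factors, to the CArG box bound by serum response factor, to the MEF2 site and to the letters TATAAA of a TATA box. The window of Acta1 lies on the minus strand at chr8:123894726-123895025, Atp2a1 on the minus strand at chr7:126463024-126463323 and Eno3, the muscle enolase, on the plus strand at chr11:70656926-70657225, all in GRCm38.p6.
Acta1: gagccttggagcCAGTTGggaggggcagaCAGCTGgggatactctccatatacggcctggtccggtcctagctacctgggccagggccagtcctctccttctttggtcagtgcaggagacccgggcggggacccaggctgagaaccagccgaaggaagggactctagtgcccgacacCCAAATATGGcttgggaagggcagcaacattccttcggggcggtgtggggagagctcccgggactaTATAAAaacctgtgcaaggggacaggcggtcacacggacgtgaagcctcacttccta
Atp2a1: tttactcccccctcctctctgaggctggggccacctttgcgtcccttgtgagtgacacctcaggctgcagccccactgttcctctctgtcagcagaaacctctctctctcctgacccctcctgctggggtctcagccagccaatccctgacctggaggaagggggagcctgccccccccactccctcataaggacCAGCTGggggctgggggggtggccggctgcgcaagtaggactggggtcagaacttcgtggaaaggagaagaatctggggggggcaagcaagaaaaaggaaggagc
Eno3: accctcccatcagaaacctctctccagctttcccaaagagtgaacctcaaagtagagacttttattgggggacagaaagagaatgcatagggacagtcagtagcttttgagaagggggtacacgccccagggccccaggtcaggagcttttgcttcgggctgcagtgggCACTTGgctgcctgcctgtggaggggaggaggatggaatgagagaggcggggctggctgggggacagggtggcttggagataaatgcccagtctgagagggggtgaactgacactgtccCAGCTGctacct
The Acta1 window held 2 E-boxes, 1 CArG box and 1 TATAAA, none overlapping, and the others held 1 and 2 E-boxes. An E-box was present in 30 of the 34 windows (88.2%) and in 72.3% of 32851 windows of all genes. The MEF2 site was present in 11.8% and 3.19%, the CArG box in 5.88% and 1.63%, and TATAAA in 20.6% and 13.6%. These are letter matches, not measured binding.

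**Figure D3:**
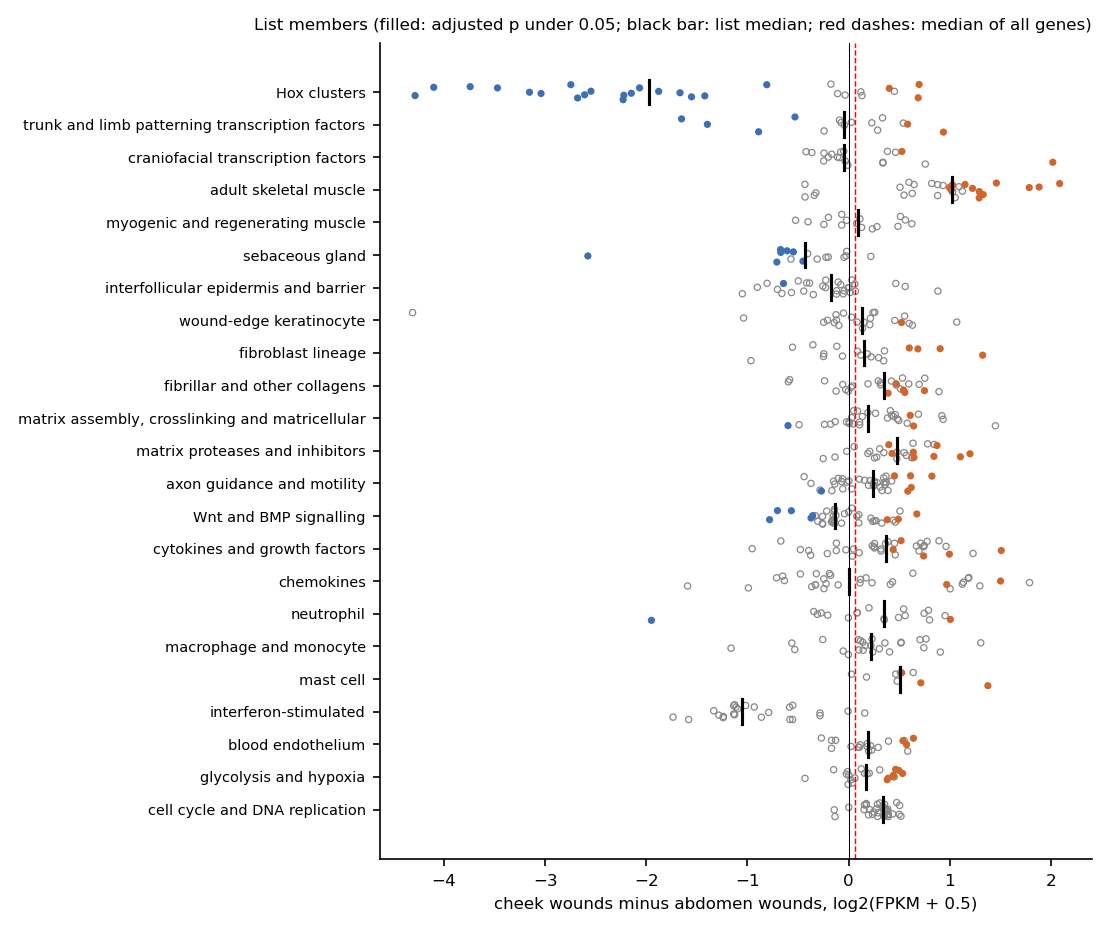
Difference between cheek and abdomen wounds (log2(FPKM + 0.5), horizontal axis) for every tested member of 23 gene lists, one list per row. Filled points are called members, black bars are list medians and the red dashed line is the median of all genes, 0.07. The Hox row spreads far to the left of 0 and the adult skeletal muscle row lies to the right. The interferon-stimulated row, without a called member, has its median at -1.06, and most other medians lie near the dashed line.

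Many sebaceous gland genes were lower in cheek wounds. Of 16 tested members 7 were lower and none was higher, with a median log2 difference of -0.43, and the summed FPKM was 1931 to 2272 in abdomen and 1320 to 1695 in cheek wounds. Scd3, a stearoyl-CoA desaturase of sebocytes, was at 65.6, 160.2, 211 and 158 FPKM in abdomen wounds and at 15.3, 32.6, 28.3 and 18.04 in cheek wounds (log2 difference -2.58, SE 0.33, limma adjusted p = 0.00277). Far2, which makes the fatty alcohols of wax esters, was at 236, 262, 223 and 207 against 150.3, 157, 147 and 127 (-0.67, SE 0.09). The 2 groups did not overlap in either gene. Mgst1, a microsomal glutathione transferase, fell by 0.67, the wax synthase Awat1 by 0.71, the lipid droplet protein Cidea by 0.61, Cyp4f39 by 0.55 and Dgat2l6 by 0.45. Scd1, the related desaturase, had a difference of -0.22 and was not called. The count of called members was 5 to 7 when a mouse was left out and 2 with abdomen wound 1 alone, where the median was -0.38. In unwounded skin the list's median was -0.34 with 2 members called, and the unwounded difference of Scd3 was -2.86.

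Keratinocyte genes gave few calls. In the list of interfollicular epidermis and barrier 1 of 30 genes was lower, Elovl4, which elongates the very long fatty acids of barrier ceramides, at 554, 578, 653 and 527 FPKM in abdomen wounds and 417, 409, 284 and 379.9 in cheek wounds (log2 difference -0.65, limma adjusted p = 0.0137). Among 23 wound-edge keratinocyte genes 1 was higher, Itga5, the fibronectin receptor subunit of migrating cells, at 26.3, 18.3, 20.3 and 24.8 against 32.4, 34.2, 31.1 and 30.3 (0.52, limma adjusted p = 0.0159). Their medians were -0.17 and 0.14, or -0.42 and -0.82 with abdomen wound 1 alone. In the barrier list 26.7% of differences were positive, against 60.2% of all genes, and 9 of 30 had an unadjusted p under 0.05. In 8 of 30 the cheek wounds lay wholly below the abdomen wounds, against 5.4% of all genes. In unwounded skin 4 of its 29 tested members were called lower, with a median of -0.43. The wound keratin Krt6b varied widely within a site, with 4999, 2479, 1986 and 586 FPKM in abdomen wounds and 1139, 1909.5, 3211 and 2599 in cheek wounds, and a log2 difference of 0.08, or -1.28 with abdomen wound 1 alone. None of 10 hair follicle genes was called by limma (3 at an unadjusted p under 0.05, median -0.19). Summed over the 29 listed hair follicle genes, unwounded abdomen ran from 1802 to 2350 FPKM and unwounded cheek from 1386 to 12012 (median 1784). Hair cycle stage was not tested. Dsg1c, a desmosomal cadherin of epithelia, was low in all abdomen wounds, at 0.70, 0.50, 0.51 and 0.46, and stood at 1.97, 3.71, 2.30 and 3.70 in cheek wounds (1.68, SE 0.27).

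Several matrix proteases were higher in cheek wounds. Of 27 tested proteases and inhibitors 8 were higher and none was lower, with a median log2 difference of 0.48. Mmp8, the neutrophil collagenase, was at 2.01, 1.66, 1.06 and 2.10 FPKM in abdomen wounds and at 4.93, 4.29, 5.97 and 2.30 in cheek wounds (log2 difference 1.11, SE 0.23, limma adjusted p = 0.0173). Mmp13, the collagenase of wound fibroblasts and bone, was at 11.9, 9.52, 16.5 and 9.62 against 31.7, 17.8, 19.5 and 20.03 (0.87, SE 0.21). The groups did not overlap in either, with cheek wound 4 closest to the abdomen in Mmp8 and cheek wound 1 highest in Mmp13. Mmp11 rose by 1.2, Adam12 by 0.84, Mmp19 by 0.65 and Adamts5, which cleaves aggrecan and versican, by 0.64. The plasminogen activators Plau and Plat rose by 0.40 and 0.43. The count of called members was 5, 6, 3 and 3 without cheek wounds 1 to 4 in turn and 14, 6, 4 and 6 without abdomen wounds 1 to 4, and it was 1 without back wounds in the fit, 5 with the length trend removed and 0 with abdomen wound 1 alone (median 0.21). Timp1, the main inhibitor induced in wounds, was at 239.7, 86.8, 106 and 94.5 FPKM in abdomen wounds and 93.7, 126, 172 and 243 in cheek wounds and was not called (0.31, limma adjusted p = 0.569, and -0.68 with abdomen wound 1 alone).

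Several collagens were higher in cheek wounds. Of 26 tested collagens 5 were higher and none was lower (median log2 difference 0.35). All 3 classical chains of microfibrillar collagen VI were among them. Col6a3 was at 78.2, 47.9, 44.1 and 63.2 FPKM in abdomen wounds and at 78.5, 92.4, 107 and 109 in cheek wounds (log2 difference 0.75, limma adjusted p = 0.0219), and Col6a1 and Col6a2 rose by 0.47 and 0.39. Col14a1, a fibril-associated collagen, rose by 0.54, and Col4a1 of basement membranes was also higher. Col1a1, the main fibrillar collagen, was at 2398, 2459.6, 2471 and 3383 in abdomen wounds and 2052, 1286, 1417 and 2618 in cheek wounds, a difference of -0.58 that was not called (limma adjusted p = 0.0964). The count of called collagens was 5, 3, 2 and 2 without cheek wounds 1 to 4 in turn and 9, 2, 0 and 4 without abdomen wounds 1 to 4. It was 1 with the length trend removed and 0 without back wounds in the fit or with abdomen wound 1 alone, where the median was 0.16.

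Of 31 genes of matrix assembly 2 were higher and 1 lower (9.68% called against 10.8% of all genes, median 0.19). Eln, elastin, fell from 106, 135, 118 and 141 FPKM in abdomen wounds to 76.8, 73.8, 78.6 and 101 in cheek wounds (log2 difference -0.60, limma adjusted p = 0.0152). The cross-linking enzymes Lox and Loxl3 rose by 0.61 and 0.64, in each case with an overlap of the groups, and their calls were lost in 5 and 7 of 8 fits that left out a mouse. The list's count was 7 without abdomen wound 1, 2 without cheek wound 3, 3 without abdomen wound 4 and 1 without each of the other mice. With the length trend removed it was 1 (median 0.12), and Lox and Loxl3 lost their calls. Tnc, tenascin C of provisional matrix, was at 125, 31.4, 37.5 and 37.4 in abdomen wounds and at 83.2, 106, 162 and 221 in cheek wounds. Abdomen wound 1 lay within the cheek range, and the gene was not called (1.45, limma adjusted p = 0.0548). Postn, periostin, was at 409.6, 365, 246 and 445 against 375, 388, 319 and 332 (-0.02), and Sparc, Spp1, Loxl1 and Prelp had differences of -0.49, 0.69, 0.19 and -0.13 without a call.

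Of 18 fibroblast genes 4 were higher (median 0.15). Sfrp2, a secreted Wnt modulator of dermal fibroblasts, was at 32.1, 22.6, 28.1 and 31.4 FPKM in abdomen wounds and at 61.0, 45.4, 62.4 and 47.1 in cheek wounds, without overlap (log2 difference 0.91, SE 0.14, limma adjusted p = 0.00590). Pdgfra, the receptor that marks fibroblasts, rose by 0.60, Pi16, a marker of adventitial fibroblasts, by 1.33 and Crabp1, a retinoic acid binding protein, by 0.69. The calls of Pi16 and Crabp1 were lost in 7 and 6 of 8 fits that left out a mouse, and the count of called members was 4, 3, 1 and 1 without cheek wounds 1 to 4 in turn and 3, 2, 1 and 2 without abdomen wounds 1 to 4. With the length trend removed 2 members were called (median 0.08), and Pdgfra and Pi16 lost their calls. Sfrp4 and Gpc3 had differences of -0.97 and -0.06 and were not called. Of 11 myofibroblast and smooth muscle genes 2 were lower and none was higher, 6 had a positive difference and the median was 0.00. Tagln and Mylk, both of the smooth muscle contractile apparatus, fell by 0.42 and 0.47. The list's summed FPKM was 485 to 683 in abdomen wounds and 646 to 823 in cheek wounds. The calls of Tagln and Mylk were lost in 5 and 6 of 8 fits that left out a mouse, and that of Tagln also with the length trend removed.

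Among 37 cytokines and growth factors 5 were higher and none lower (13.5% called against 10.8% of all genes, median log2 difference 0.37). Ptgs2, the inducible cyclooxygenase of prostaglandin synthesis, was at 9.05, 3.97, 5.50 and 3.51 FPKM in abdomen wounds and at 9.49, 14.5, 25.9 and 16.5 in cheek wounds (log2 difference 1.51, SE 0.31, limma adjusted p = 0.0185). Abdomen wound 1 was close to cheek wound 1, and the other libraries were well apart. Hgf, a growth factor for epithelium and endothelium, was at 0.95, 1.00, 0.41 and 0.46 against 1.29, 1.74, 2.41 and 2.08 (1.00, limma adjusted p = 0.0299). Vegfa, which drives vessel growth, rose by 0.52, Egf by 0.74 and Igf1 was also higher. Tgfb1, at 60.3, 65.7, 61.6 and 69.4 against 66.9, 74.1, 72.5 and 63.1, was not called (0.11). The count of called members was 2, 2, 1 and 4 without cheek wounds 1 to 4 in turn and 12, 5, 1 and 3 without abdomen wounds 1 to 4. It was 4 with the length trend removed (median 0.34), where Vegfa lost its call. With abdomen wound 1 alone the median was 0.01. Of 32 chemokines 2 were higher (6.25% called against 10.8% of all genes, median 0.00). Ccl11, the eosinophil attractant eotaxin, was at 20.2, 17.8, 18.3 and 24.9 in abdomen wounds and 68.8, 38.4, 35.0 and 27.3 in cheek wounds (0.97, limma adjusted p = 0.0293), and the platelet chemokine Ppbp rose by 1.5 with an overlap of the groups. The chemokine count rose to 8 without abdomen wound 1 and to 5 without cheek wound 4, and it was 0 without cheek wound 2 or 3 or abdomen wound 2 or 3, and 1 without cheek wound 1 or abdomen wound 4.

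Immune cell markers other than those of mast cells gave few calls, in both directions. Among 19 neutrophil genes 1 was higher and 1 lower (10.5% called against 10.8% of all genes). Their median log2 difference was 0.35, or -0.17 with abdomen wound 1 alone. Mpo, myeloperoxidase, was at 10.2, 17.4, 23.4 and 14.8 FPKM in abdomen wounds and at 4.24, 2.79, 2.11 and 7.29 in cheek wounds (-1.95, SE 0.34, limma adjusted p = 0.0109). Unwounded skin showed the same order, with a log2 difference of -1.2. Csf3r, the receptor for granulocyte colony-stimulating factor, rose by 1.01 with an overlap of the groups. It lost its call in 6 of 8 fits that left out a mouse and with the length trend removed. Summed neutrophil markers were 2768, 1465, 990.2 and 557 in abdomen wounds and 1270, 1119, 1889 and 833.0 in cheek wounds. Limma called no macrophage gene of 25 (5 at an unadjusted p under 0.05, median 0.22), none of 13 genes of antigen presentation and Langerhans cells (3, 0.11) and none of 3 B cell genes (0, 0.10). Cd3e, a chain of the T cell receptor complex, was lower in cheek wounds (-1.05, limma adjusted p = 0.00881). It was at 2.34, 2.95, 1.68 and 2.08 FPKM there against 3.43, 6.37, 5.97 and 5.28 in abdomen wounds. This was the only call among 14 T and NK cell genes (7.14% against 10.8% of all genes, median -0.23). Mast cell genes had 3 calls of 9, all higher (33.3% called against 10.8% of all genes, median 0.51). Kit was at 2.04, 2.33, 2.33 and 2.09 in abdomen wounds and 2.91, 3.31, 3.55 and 3.80 in cheek wounds (0.53, limma adjusted p = 0.0152), and the granule proteases Cpa3 and Tpsab1 rose by 0.71 and 1.38. Leaving out cheek wound 3, cheek wound 4 or abdomen wound 3 left 1 of the 3 calls, and leaving out cheek wound 1 left 2. With the length trend removed 1 was left, Cpa3, and the list median was 0.60. With abdomen wound 1 alone the median was 0.56.

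Interferon-stimulated genes had a median log2 difference of -1.06 and no limma call among 24, with 1 at an unadjusted p under 0.05. The spread within a site was wide: Isg15, a ubiquitin-like antiviral protein, was at 171, 15.4, 108 and 242 FPKM in abdomen wounds and at 30.9, 74.0, 45.1 and 39.3 in cheek wounds (limma adjusted p = 0.526). Summed over the list, abdomen wounds were at 1351, 389, 1099.7 and 2140.3 and cheek wounds at 610.0, 884, 511 and 605. Abdomen wound 2 lay below every cheek wound and the other 3 above.

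Signals that guide cells and axons included several rises. Of 37 genes of axon guidance and motility 5 were higher and 1 lower (16.2% called against 10.8% of all genes, median log2 difference 0.24). Slit2, a secreted ligand of Robo receptors, was at 2.75, 2.16, 1.81 and 1.57 FPKM in abdomen wounds and at 3.91, 4.42, 3.68 and 3.97 in cheek wounds (0.82, SE 0.14, limma adjusted p = 0.00723). Its unwounded difference was 0.15 (limma adjusted p = 0.691). Sema7a, a membrane-anchored semaphorin, was at 9.69, 10.7, 10.2 and 9.77 against 14.02, 18.5, 15.8 and 14.9 (0.62, SE 0.09). These genes were clear of overlap and kept their calls in each of the planned fits. In the added fit with abdomen wound 1 alone, the log2 difference was 0.47 for Slit2 and 0.67 for Sema7a. Nrp1, a co-receptor for semaphorins and VEGF, rose by 0.59, Sema3e by 0.61 and netrin, Ntn1, by 0.45, and Efnb1 fell by 0.27. The list's count was 2, 2, 4 and 3 without cheek wounds 1 to 4 in turn and 3, 6, 2 and 6 without abdomen wounds 1 to 4. With the length trend removed it was 4 and the median fell to 0.04, and Ntn1 and Sema3e lost their calls. The median with abdomen wound 1 alone was 0.18.

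Of 39 genes of Wnt and BMP signalling 5 were lower and 3 higher (median -0.14). Id3, an inhibitory helix-loop-helix factor and BMP target, was at 56.7, 63.1, 74.8 and 61.8 FPKM in abdomen wounds and 49.9, 41.5, 42.3 and 38.7 in cheek wounds (log2 difference -0.57, SE 0.10, limma adjusted p = 0.0102), with an unwounded difference of 0.00. Wnt3 fell by 0.78, Rspo1, which amplifies Wnt signals, by 0.70, Wnt7b by 0.37 and Wnt10a by 0.35. Wnt5a, a ligand of non-canonical Wnt signalling, rose by 0.49, Rspo4 by 0.67 and the activin antagonist Fst by 0.38. The count was 6, 3, 3 and 4 without cheek wounds 1 to 4 in turn and 5, 6, 2 and 5 without abdomen wounds 1 to 4. With the length trend removed it was 5 (median -0.15), and Wnt5a lost its call. With abdomen wound 1 alone the median turned to 0.24. Wnt2 and Msx1 had differences of -0.14 and -0.17 without a call.

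Some genes of vessels and metabolism showed small rises. Of 20 blood endothelial genes 3 were higher (median 0.19): the leukocyte adhesion receptor Vcam1 (0.64), the VEGF receptor Flt1 (0.54) and the angiopoietin receptor Tek (0.57). Vcam1 was at 6.56, 5.85, 5.30 and 6.24 FPKM in abdomen wounds and at 7.50, 11.8, 10.2 and 9.35 in cheek wounds. It kept its call in each planned fit, and with abdomen wound 1 alone its log2 difference was 0.52. The count was 1 without cheek wound 1 or 4 or abdomen wound 3. With the length trend removed it was also 1 (median 0.11), and Flt1 and Tek lost their calls. The median with abdomen wound 1 alone was 0.12. In 2 smaller lists 1 gene each was higher, the pigment cell regulator Mitf (0.66), 1 of 6 melanocyte genes, and protein S, Pros1 (0.48), 1 of 12 coagulation genes. Their medians were 0.10 and 0.25. The calls of Mitf and Pros1 were lost with the length trend removed. Of 15 adipocyte genes Slc2a4 alone was called (median 0.08), and that gene is also expressed in muscle. Of 6 salivary and lacrimal genes 1 was lower, Scgb2b27 (-1.22; list median -0.30). Limma called no lymphatic gene of 4, red cell gene of 5 or Y-linked gene of 4, where 2, 0 and 2 had an unadjusted p under 0.05 and the medians were 0.17, -0.61 and 0.41. Of 22 genes of glycolysis and hypoxia 7 were higher (median 0.17), including hexokinase Hk2 (0.44), Gapdh (0.38), Pkm (0.50), Aldoa (0.44) and the vasodilator peptide Adm (0.39). Hk2 was at 12.3, 11.6, 11.1 and 9.24 in abdomen wounds and 15.9, 14.2, 14.4 and 16.1 in cheek wounds, and was called in unwounded skin as well (1.15). The glycolysis count was 2, 1, 2 and 2 without cheek wounds 1 to 4 in turn and 6, 3, 2 and 5 without abdomen wounds 1 to 4. It was 0 when 24 libraries shared one spread and 4 with the length trend removed (median 0.24), where Hk2 lost its call. With abdomen wound 1 alone the median was -0.04. Skeletal muscle is rich in several of these enzymes, and adult muscle genes were higher in the same libraries (15 of 32, median 1.02). The part of muscle in the glycolysis calls was not tested.

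No cell cycle gene passed the limma test. Of 34 genes 32 had a positive log2 difference (94.1%, against 60.2% of all genes), the median was 0.34, 17 had an unadjusted p under 0.05, and in none did the groups stand apart. With abdomen wound 1 alone the median was 0.04. Mki67, the proliferation antigen, was at 12.2, 11.1, 7.59 and 9.37 FPKM in abdomen wounds and at 11.2, 16.2, 17.5 and 12.9 in cheek wounds (log2 difference 0.50, SE 0.17, limma adjusted p = 0.0760, exact permutation p = 0.0571). Top2a, the topoisomerase of dividing cells, was at 18.5, 18.1, 13.6 and 12.6 against 15.5, 23.5, 25.7 and 21.2 (0.44, limma adjusted p = 0.0979). Cheek wound 1 was the lowest cheek library in both and lay within the abdomen range. The mitotic cyclin Ccnb1, the replication licensing factor Mcm2 and the transcription factor Mybl2 had differences of 0.50, 0.29 and 0.38. Without cheek wound 1 the count of called members was 5, and under other settings it ran from 0 to 6. In 27 start-site windows of 26 of these genes, CCAAT was present in 81.5% and TTTGAA in 48.1%, against 37.4% and 17.9% of all windows, on either strand. Both are known elements of cell cycle promoters.

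Some of the largest differences lay outside these lists. Thbs4, a thrombospondin of tendon and muscle matrix, was at 7.65, 5.43, 7.11 and 6.88 FPKM in abdomen wounds and at 26.5, 33.0, 20.3 and 20.4 in cheek wounds (log2 difference 1.79, SE 0.25, limma adjusted p = 0.00401). Hacl1, a peroxisomal lyase of branched and hydroxy fatty acids, was at 9.89, 6.69, 7.16 and 5.61 against 16.6, 27.2, 27.9 and 27.1 (1.68, SE 0.19). The 2 groups were well separated in both. Kcnc4, a voltage-gated potassium channel, rose from a mean of 1.33 ± 0.33 to 5.26 ± 1.33 (SD, n = 4 each; log2 difference 1.64), Nmu, the neuropeptide neuromedin U, from 0.87 ± 0.51 to 3.60 ± 0.60 (1.64), and Evi2 from 0.37 ± 0.34 to 2.09 ± 0.83 (1.60). Hist1h2ao, a replication-dependent histone gene, was at 1.62, 0, 1.65 and 1.1 in abdomen wounds and 7.11, 4.25, 9.09 and 7.28 in cheek wounds (2.38), and its near-identical copies make its read assignment uncertain.

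The same limit holds for the largest falls outside the Hox clusters. Serpina3j, of a cluster of serine protease inhibitors, was at 153, 174, 239 and 102 FPKM in abdomen wounds and at 4.37, 12.99, 3.81 and 16.3 in cheek wounds (log2 difference -4.27, SE 0.54, limma adjusted p = 0.00251). Serpina3b fell by 3.11 and Mup7, of the major urinary proteins that carry pheromones, by 2.99. All 3 belong to families of near-identical genes, and reads may have been shared among copies. In unwounded skin the log2 differences of Serpina3j and Serpina3b were -3.59 and -2.74, both called. Another 31 called genes had predicted or clone names and are not described.

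Of 28 tested genes that the study itself names for its RNA-seq measurements, 3 were higher (Slit2, Wnt5a and Hoxd3) and 5 lower (Hoxb6, Tbx5, Hand2, Tbx3 and En1), with a median of 0.04. They were named from these same samples and are no independent evidence of direction. Churc1, a zinc finger factor, and Zic1, a trunk factor, had differences of -0.38 (limma adjusted p = 0.0619) and 0.54 (limma adjusted p = 0.119). Zic1 was low at both sites, with 0.05, 0.22, 0 and 0.10 FPKM in abdomen wounds and 0.62, 0.36, 0.12 and 0.39 in cheek wounds. It passed the filter only with back wounds counted. Foxl2, Nkx2-5 and Col22a1 did not pass the filter on low values.

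How far calls held was counted over the 96 called genes named by the rule. The fit with abdomen wound 1 alone had no spread of its own for abdomen wounds and took it from the other groups. Across 1050 fits with another setting the call held in 919 and was lost in 131. Across 757 fits with a mouse left out it held in 547 and was lost in 210. The direction did not change in any of these fits. In 41 of the 96 the call held in every planned fit in which the gene passed the filter. This was all 11 settings and all 8 fits with a mouse left out, except that Tbx5 entered 10 and 4 of them and Hand2 10 and 8. In 14 it held also with abdomen wound 1 alone and with the length trend removed: Hoxa7, Hoxa9, Hoxa10, Hoxb2, Hoxb6, Hoxb7, Hoxc6, Hoxc8 and Hoxc9, and Otx1, Tbx15, Far2, Cyp4f39 and Evi2.

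The same contrast was made in unwounded skin of the same mice. Of 13956 genes tested 358 (2.57%) differed between unwounded cheek and abdomen, 186 higher in cheek and 172 lower. Of the 1499 genes called in wounds that were tested in unwounded skin, 181 (12.1%) were called there as well, and 180 of these had the same sign. Seen from the other side, 52.3% of 346 unwounded calls were called in wounds. The 181 include Hox genes, Otx1, Tbx5, Tbx15, Scd3, Thbs4, Kcnc4 and Mpo. The count of unwounded calls was 129, 81, 355 and 207 without cheek mice 1 to 4 in turn and 395, 96, 83 and 693 without abdomen mice 1 to 4. A call in wounds and none in unwounded skin is not itself a difference between the 2 contrasts, which was tested next.

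**Figure D4:**
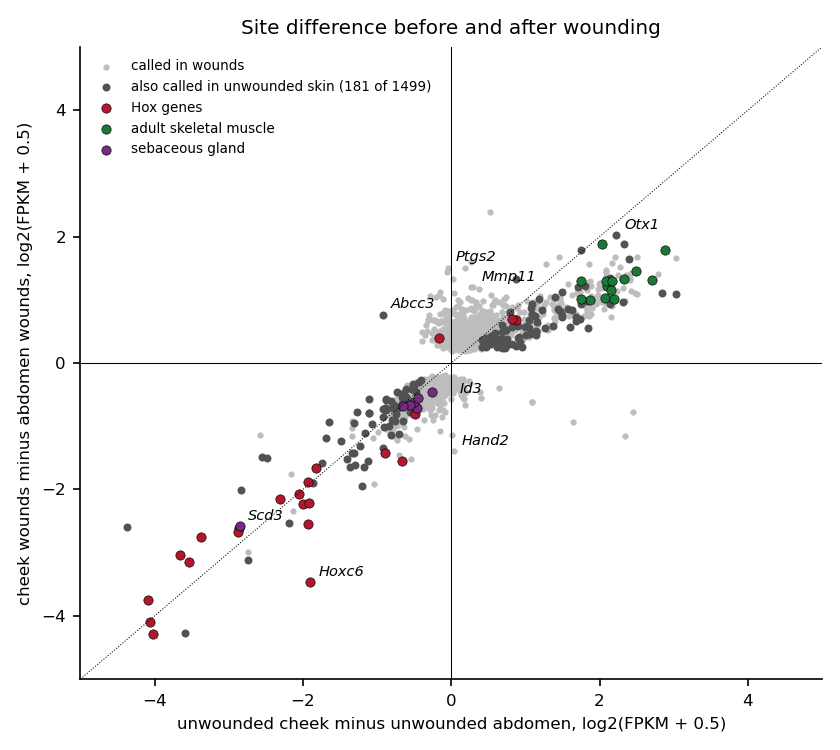
Cheek minus abdomen difference in wounds (vertical axis) against that in unwounded skin (horizontal axis), both in log2(FPKM + 0.5), for genes called in wounds. Dark points are the 181 of 1499 also called in unwounded skin, coloured points are list members and the dotted line marks equal differences. Hox genes lie near the dotted line at lower left, and Abcc3 lies above 0 in wounds and below 0 in unwounded skin.

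The difference between the wound responses, wound minus unwounded skin in cheek against the same in abdomen, was tested in 24 libraries with mouse as a term. In this fit 2840 genes rose and 2432 fell on wounding in cheek, and 2437 and 2304 in abdomen. Of 14423 genes tested 1 (0.00693%) differed in its response, Abcc3, and 1715 had an unadjusted p under 0.05. Abcc3, an exporter of conjugated organic anions, was at 2.43, 2.74, 3.21 and 2.23 FPKM in unwounded abdomen and 3.31, 3.20, 3.67 and 2.64 in abdomen wounds. In the cheek it was at 1.15, 1.16, 1.25 and 1.04 in unwounded skin and at 4.85, 5.80, 6.39 and 6.16 in wounds. The wound effect was thus 1.93 in cheek and 0.24 in abdomen on the log2 scale, a difference of 1.69 (SE 0.13, limma adjusted p = 1.54e-04). The order of the sites turned over: the log2 difference was -0.93 in unwounded skin and 0.77 in wounds. With abdomen mouse 1 as the only abdomen mouse the difference in response was 1.55 (limma adjusted p = 0.101). The next genes did not pass. Hand2 had a difference of -1.43 (limma adjusted p = 0.101), its level in cheek being 1.64, 1.03, 2.23 and 2.69 in unwounded skin and 0.13, 0.10, 0.05 and 0.60 in wounds. Hoxc6 had -1.56 (limma adjusted p = 0.107). Without abdomen mouse 1 the count was 209, 53 more positive in cheek and 156 more negative, and Hand2 was among them (limma adjusted p = 0.0172). It was 2 without cheek mouse 1 and 3 without cheek mouse 4.

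**Figure D5:**
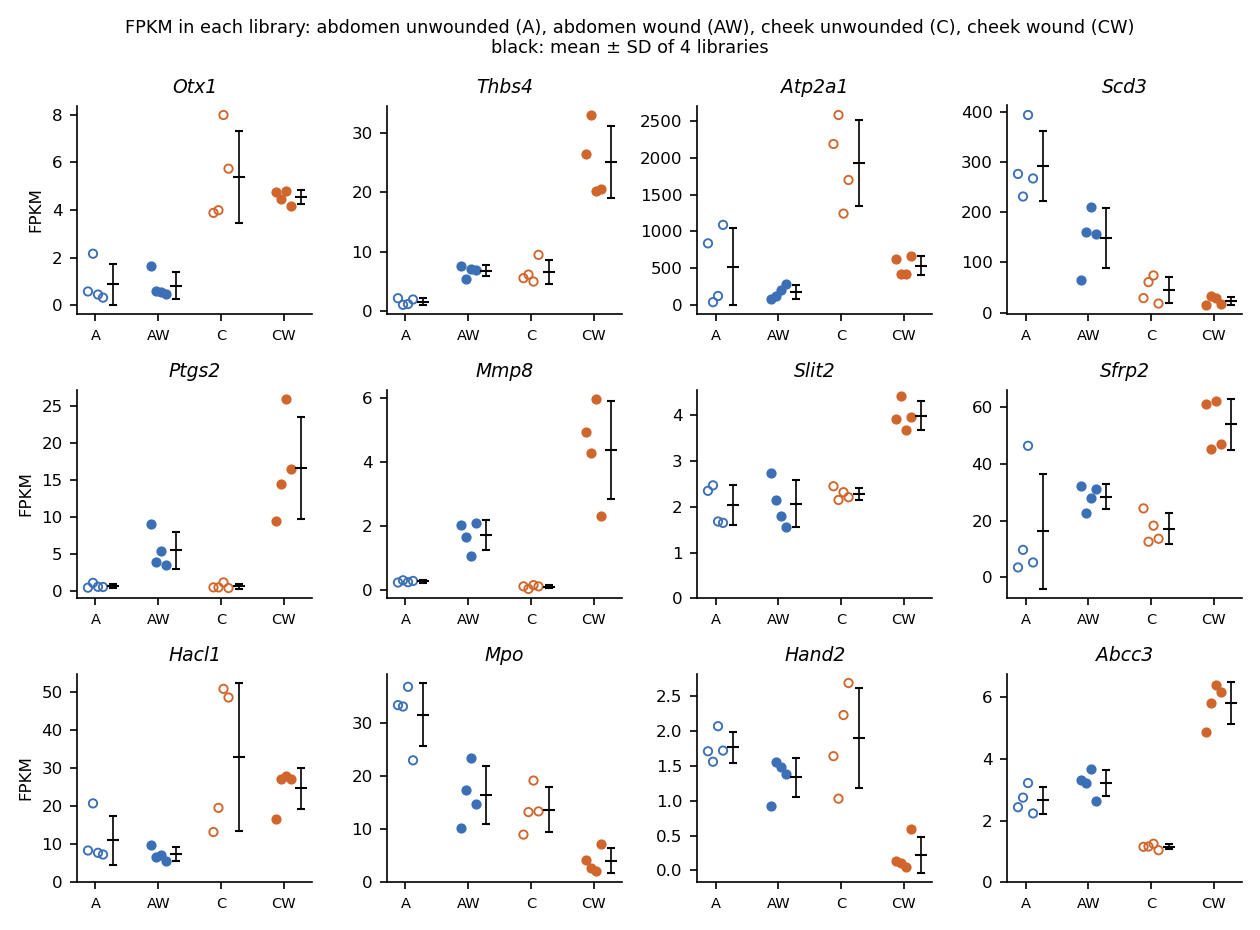
FPKM of 12 genes in each library of unwounded abdomen (A), abdomen wound (AW), unwounded cheek (C) and cheek wound (CW), with open points for unwounded skin and black marks for mean ± SD of 4 libraries. Abcc3 rises with wounding mainly in the cheek, Hand2 is lower in cheek wounds than in the other 3 groups, and Otx1, Thbs4 and Scd3 differ between sites with and without a wound.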

How the data were processed

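Wounds and adjacent unwounded skin of CD1 mice were sequenced as paired-end reads (BGISEQ-500). Per the study's methods and the labels, the authors aligned reads to mm10 with HISAT2, mapped them to transcripts with Bowtie2 (2.2.5) and computed the deposited FPKM with RSEM (1.2.12). The deposited table also holds the authors' own DESeq2 comparisons (log2 fold changes and p-values), which were not used. FPKM have no counts, so depth is unknown. Groups came from the labels. FPKM of 12 wound libraries were analysed as log2(FPKM + 0.5) in limma 3.58.1 (R 4.3.3; trend and robust moderation) for genes at 0.5 FPKM or more in at least 4 libraries, with Benjamini-Hochberg adjustment and a threshold of 0.05. Back wounds entered to share the spread, and they also counted towards the filter. Without them 13855 genes were tested. Unwounded skin was fitted likewise, and wound responses in 24 libraries with mouse as a term. Exact permutation tests (SciPy 1.17.1) served single genes. Gene lists were counted, not tested. Named genes were the 14 largest called, non-overlapping rises and falls with a mean of at least 2 FPKM and no clone name, up to 4 called members per list by smallest p, the 5 largest called response differences each way and genes the study names; other list members were chosen after their values were seen. The comparison, lists and members were chosen with earlier results of these data known. In simulated data with 200 changed genes of 14023, log2 changes of 0.5, 1 and 2 were called in 40.5%, 88.5% and 98% of them. Transcript lengths came from GENCODE and coordinates and start-site sequence from RefSeq (GRCm38.p6). Some genes are not reported here. Alternatives covered pseudocount, filter, scaling, moderation, libraries in the fit, a replicate block and leaving out each mouse. The 2 fits with abdomen wound 1 alone and with the length trend removed were chosen after seeing the data.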

Additional observations from a re-analysis of the deposited data

Results flagged for a closer look

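In 19 of 256 groups of 4 libraries (7.42%) 1 library stood far from the other 3, and chance flags about 1 in 20 such groups. 5 of the 7 flags in abdomen wounds fell on abdomen wound 1, the abdomen wound without pancreas transcripts: Tnc at 124.8 FPKM, Timp1 at 239.7, Crabp1 at 127.5, Csf3r at 17.6 and Otx1 at 1.66, each above the other 3. The other 2 fell on abdomen wound 4, Col1a1 at 3383 and Kcnc4 at 1.82.

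In cheek wounds the flags were spread over all 4 mice. Cheek wound 1 was high in Mmp13 (31.7 FPKM), Tbx15 (24.0) and Wnt2 (2.74) and low in Hacl1 (16.6). Cheek wound 2 was low in Prelp (40.1), and it was the only cheek wound above 0 for Hoxb6 (0.09) and Hoxc9 (0.03), as was cheek wound 3 for Hoxa9 (0.02). Cheek wound 3 was high in Tpsab1 (7.27). Cheek wound 4 was high in Col6a1 (268), Col6a2 (288) and Hand2 (0.60).

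The wound response of Abcc3 differed between the sites by 1.69 on the log2 scale in a test of that difference (limma, adjusted over 14423 genes), and its level rose in 4 of 4 cheek mice and 4 of 4 abdomen mice.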

How the results depend on the processing

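No called gene named by the rule changed direction under any alternative that was run, but the balance of calls did: the 1054 higher and 465 lower in wounds became 598 and 614 with the length trend removed, and the 186 and 172 in unwounded skin became 96 and 183 with median-ratio scaling. With abdomen wound 1 alone some list medians changed sign, among them wound-edge keratinocyte (0.14 to -0.82), Wnt and BMP signalling (-0.14 to 0.24), neutrophil (0.35 to -0.17) and glycolysis (0.17 to -0.04). The 1519 calls between cheek and abdomen wounds became 490 with the 8 libraries only, 769 with 24 libraries as 6 groups and 183 with abdomen wound 1 alone, of which 135 were among the 1519, and ran from 508 to 1703 when a mouse was left out. The 119 calls among 695 list members became 58 with the 8 libraries only and 44 with abdomen wound 1 alone, and ran from 55 to 146 when a mouse was left out. The 358 unwounded calls became 113 with the 8 libraries only and ran from 81 to 693. The single difference in wound response became 2 with abdomen wound 1 alone (Gm2506 and Mug1, named after their values were seen), and ran from 1 to 209. Fewer libraries entered the fits of 8 and those with abdomen wound 1 alone; the cause of the other changes was not tested. Under the other settings these counts stayed within 1.5 times.

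Same-numbered cheek and abdomen wounds came from different mice, and their deviations from the group means did not go together (correlations -0.41, -0.18, 0.01 and -0.16). No library correlated best with its own number. For wound and unwounded skin of the same mouse the correlations were -0.04, 0.36, 0.52 and 0.45 in abdomen mice 1 to 4. They were 0.54, 0.16, 0.34 and 0.20 in cheek mice 1 to 4. With the replicate number as a block the wound calls were 1127, of which 1025 were among the 1519, and the unwounded calls 241. The response fit without a replicate block gave 1. Unknown depth limits what can be said of genes near 0 FPKM.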

Other observations

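Some gene groups not described so far were assembled after their values were seen, and so carry no weight as tests. Genes of cholesterol synthesis were lower in cheek wounds in 7 of 21 cases and higher in none (median log2 difference -0.23). They included Lss (-0.60), which closes the sterol rings. Among 21 genes of fatty acid elongation, desaturation and ceramide 9 were lower and 1 higher. Elovl5 and Hacd2 fell by 0.85 and 0.87, Fa2h, which hydroxylates the fatty acids of ceramides, by 0.70, and Scd2 rose by 0.61. Of 17 genes of the tricarboxylic acid cycle 9 were higher and none lower (median 0.27), with Idh3a at 0.66. The cycle's median in unwounded skin was 0.60, also with 9 higher, and muscle genes were higher in the same libraries. The part of muscle in this was not tested.

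Laminins and other basement membrane genes were higher in 7 of 11 cases (median 0.47), with Nid1 at 0.83, Pxdn at 0.75 and Lamb1 at 0.66, and none was called in unwounded skin. Integrins were higher in 5 of 19 (median 0.36), with Itgav at 0.83 and Itga2 at 0.82. These are long transcripts, and with the length trend removed 4 and 2 were called and the medians were 0.21 and 0.26. Of 79 cytosolic ribosomal protein genes, which are short, 15 were lower and 2 higher (median -0.22, and -0.10 with the length trend removed). Major urinary protein genes were lower in 4 of 9 cases and Serpina3 genes in 3 of 9. These directions were the same under each scaling run.

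A few genes were present in some mice and nearly absent from others of the same site, in the wound and the unwounded skin alike. Skint3, of a family expressed in keratinocytes, was at 22.1 FPKM in unwounded skin and 19.3 in the wound of abdomen mouse 1 and was listed at 0 in both libraries of abdomen mice 2 to 4. It was at 19.0 and 17.7 in cheek mouse 2 and at 8.06 and 8.60 in cheek mouse 4. Tgoln2 was at 14.2 and 14.7 in abdomen mouse 1, at 0 in both libraries of abdomen mouse 2, at 10.9 and 12.99 in abdomen mouse 3 and at 21.4 and 15.1 in abdomen mouse 4. It was at most 0.08 in any cheek library. The sites used different mice, so site and mouse cannot be told apart for this gene.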
